A study of Mus musculus with 8 samples.

Results

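The clustered protocadherins of the mouse lie in 3 neighbouring groups of genes on chromosome 18, the alpha, beta and gamma clusters. They were measured here by RNA sequencing of dissected olfactory epithelium. Members were the rows of the deposited count table whose gene symbol began with Pcdha, Pcdhb or Pcdhg and whose chromosome was 18. This gave 24 of the 25913 rows: 1 alpha row, 22 beta rows and 1 gamma row. The study made a homozygous deletion of Igf1r, the gene of a receptor for insulin-like growth factors, in olfactory sensory neurons, with Omp as the driver that the strain's name gives. Omp is a gene of mature olfactory neurons, and the dissected tissue also holds supporting, basal and respiratory cells that do not use it. Libraries are named by their titles, OMP_IGF1R (replicates 11, 12, 17 and 18) and IGF1R_flfl (replicates 1, 2, 13 and 3), with 4 libraries in each group. All came from C57BL/6J mice aged 40 weeks, and no drug or other treatment is given in the labels.

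The genotype field goes against the titles. It gives the libraries titled OMP_IGF1R the genotype OMPflfl (Ctrl), and those titled IGF1R_flfl the genotype OMPIGF1 (KO). Every fold change below has OMP_IGF1R on top and IGF1R_flfl beneath, by title, so its direction with respect to the deletion depends on which label is right. Whether each library is a different animal is not stated in the labels, and every p-value therefore describes the scatter among these libraries, part of which may be technical. The title numbers run from 35156 to 35159 in OMP_IGF1R and from 35138 to 35141 in IGF1R_flfl, so a batch that followed those numbers cannot be told apart from the group.

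Clustered protocadherins are cell-surface adhesion proteins that give each neuron a barcode by which its branches recognise one another. Each neuron turns on a few of the many promoters, largely at random, and the choice depends on DNA methylation and on loops made by CTCF and cohesin between a promoter and distant enhancers. An alpha or gamma messenger joins 1 variable first exon to constant exons shared by its whole cluster, whereas each beta gene is read as a gene of its own and lacks the constant cytoplasmic part. In the olfactory system, axons of sensory neurons need this diversity to sort and to end in separate glomeruli.

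The total count was 18802471 to 27793375 per library. Igf1r had 49.6, 43.9, 34.5 and 40.5 CPM (counts scaled by library size) in OMP_IGF1R 11, 12, 17 and 18, against 72.9, 55.5, 67.9 and 69.9 CPM in IGF1R_flfl 1, 2, 13 and 3. The groups did not overlap (log2 fold change -0.66, SE 0.116, adjusted p = 0.0117 by edgeR's quasi-likelihood test). Omp averaged 1969 ± 224 CPM in OMP_IGF1R and 5386 ± 990 CPM in IGF1R_flfl (SD, n = 4 each), which gave -1.45 on the log2 scale (SE 0.132, edgeR adjusted p = 0.00179). The group with the control genotype in its labels was thus the one with less of both RNAs. Igf1r counts also include exons outside any deleted stretch and reads from other cells. One library of each group stood apart in a summed list of markers of other tissues. Markers of skeletal muscle reached a sum of 552.4 CPM in OMP_IGF1R 17, against 4.90 to 7.55 CPM in the other OMP_IGF1R libraries. Markers of the bulb and of oligodendrocytes, taken as a single list, reached a sum of 2809 CPM in IGF1R_flfl 2, against 609 to 767 CPM in the other IGF1R_flfl libraries. Mbp, Mobp, Gad1 and Slc32a1 were among the genes of that list that were high there. Eomes, Tbr1 and Slc17a7 of the same list were not above the other IGF1R_flfl libraries.

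Only the beta cluster can be read gene by gene in this table. The alpha row carries the symbol Pcdhac1 (ENSMUSG00000007440) and runs from 36930285 to 37187657 on chromosome 18 of GRCm38, a span that holds all 14 alpha gene models of the GENCODE M21 reference annotation. The gamma row carries the symbol Pcdhga11 (ENSMUSG00000023036) and runs from 37674335 to 37841873. It holds 20 of the 22 gamma gene models within a tolerance of 200 bases, leaving out Pcdhga1 and Pcdhga2. Each of these rows therefore stands for most or all of a cluster, not for the isoform whose symbol it bears, and single alpha and gamma isoforms, including the C-type ones, have no values of their own here. The 22 beta rows are Pcdhb1 to Pcdhb22, each spanning 2.34 to 7.13 kb. All 24 rows passed the filter on low counts, with mean counts of 21.4 to 6357 per library.

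**Figure D1:**
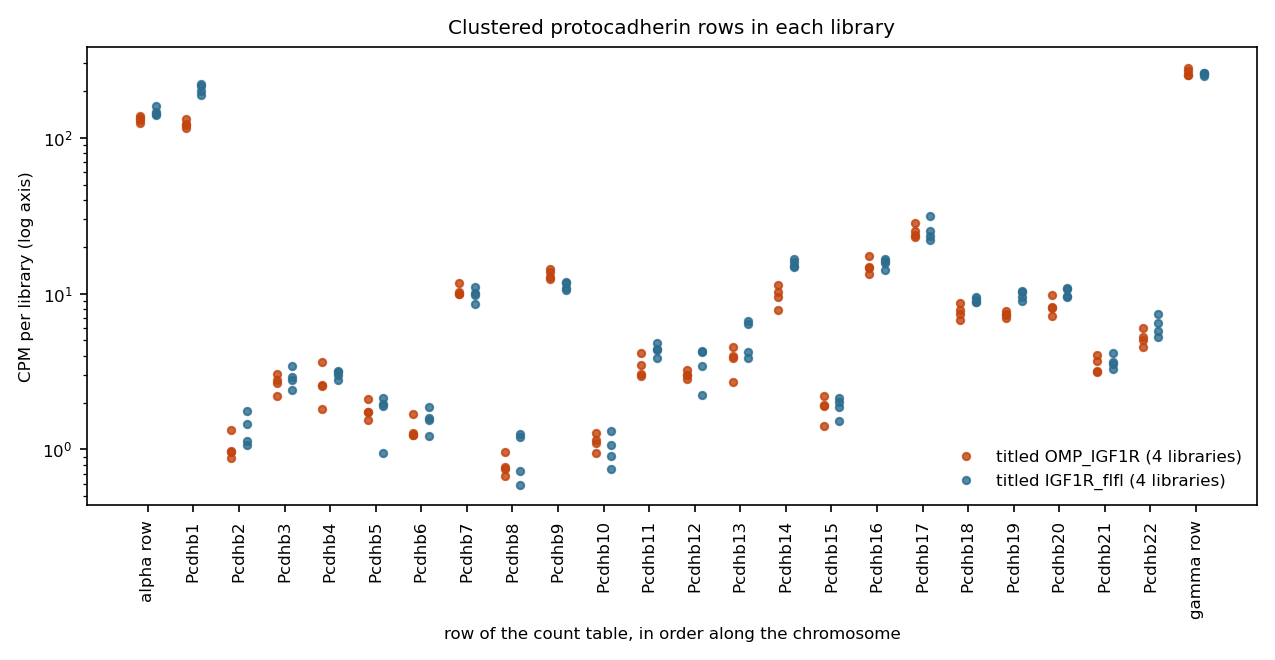
CPM of each clustered protocadherin row in every library, on a log axis, in order along chromosome 18, with the 4 libraries titled OMP_IGF1R left of the 4 titled IGF1R_flfl. Pcdhb1 stands at 115 to 131 CPM in OMP_IGF1R and 187 to 222 CPM in IGF1R_flfl, while the gamma row overlaps between the groups.

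Of the 24 rows, 3 fell in the libraries titled OMP_IGF1R and 0 rose at an edgeR adjusted p under 0.05 over all genes. The 3 were the beta genes Pcdhb1, Pcdhb14 and Pcdhb19, which are 12.5% of the members and 13.6% of the beta cluster. Over all 17381 genes tested, 5.37% were called lower, 2.83% higher and 8.2% in either direction. At an unadjusted edgeR p under 0.05 stood 8 members, 7 lower and 1 higher. Of all genes, 23.5% stood there in either direction, 2458 of the 17381 lower and 1625 higher. The groups did not overlap in 6 members, 5 of them lower, against 16.9% of all genes in either direction and 10.3% in the lower direction. The log2 fold change was below 0 for 19 of the 24 rows with a median of -0.20, while over all genes tested 52.5% were below 0 with a median of -0.01. Within the beta cluster it was below 0 for 18 of 22 genes, with a median of -0.22, or -0.21 without Pcdhb1.

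Pcdhb1, the first gene of the beta cluster (ENSMUSG00000051663, chromosome 18, 37264998 to 37267454), was the most abundant beta gene and the member with the smallest p. Its promoter is known to lack the conserved sequence element that most clustered protocadherin promoters share. It had 131.0, 114.5, 120.8 and 122.8 CPM in OMP_IGF1R 11, 12, 17 and 18, against 197.9, 186.5, 213.8 and 221.5 CPM in IGF1R_flfl 1, 2, 13 and 3. Every library titled OMP_IGF1R was below every library titled IGF1R_flfl, and the gap between the groups was wider than the range within either. The means were 122 ± 6.81 CPM in OMP_IGF1R and 205 ± 15.7 CPM in IGF1R_flfl (SD, n = 4 each), a ratio of 0.597. The log2 fold change was -0.75 (SE 0.0697, 95% interval -0.90 to -0.59, edgeR quasi-likelihood adjusted p = 0.00179). By p it ranked 13 among the 17381 genes tested, and by mean CPM 1082. It stayed below the threshold in each of the 15 alternative fits, with a log2 fold change of -0.78 to -0.70.

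Pcdhb14 and Pcdhb19, adhesion proteins of the same type from the later part of the cluster, fell too. Pcdhb14 (ENSMUSG00000044043, 37447657 to 37451094) had 11.3, 7.84, 9.56 and 10.3 CPM in OMP_IGF1R 11, 12, 17 and 18, against 15.03, 16.6, 15.9 and 14.9 CPM in IGF1R_flfl 1, 2, 13 and 3. The groups did not overlap, and OMP_IGF1R 12 was the lowest library. The means were 9.74 ± 1.45 CPM in OMP_IGF1R and 15.6 ± 0.795 CPM in IGF1R_flfl (SD, n = 4 each), with a log2 fold change of -0.68 (SE 0.115, 95% interval -0.94 to -0.42, edgeR adjusted p = 0.00999). The call was kept in all 15 alternative fits, with values of -0.76 to -0.59.

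Pcdhb19 (ENSMUSG00000043313, 37496997 to 37504127) had 7.40, 7.27, 6.95 and 7.72 CPM in OMP_IGF1R 11, 12, 17 and 18, against 10.3, 10.4, 9.54 and 8.92 CPM in IGF1R_flfl 1, 2, 13 and 3. All OMP_IGF1R libraries were below all IGF1R_flfl libraries, and OMP_IGF1R spread over less than 1 CPM. The log2 fold change was -0.41 (SE 0.0930, 95% interval -0.62 to -0.21, edgeR adjusted p = 0.0276). This call was the least firm of the 3. It was lost when any of OMP_IGF1R 11, 12, 17 or 18 or IGF1R_flfl 1, 2 or 13 was left out alone, with edgeR adjusted p of 0.0538 to 0.0789, and was kept without IGF1R_flfl 3.

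The remaining 19 beta genes were not called in either direction. Pcdhb9 (ENSMUSG00000051242), whose p was the fourth smallest in the cluster, pointed the other way. It had 13.8, 12.3, 14.3 and 12.9 CPM in OMP_IGF1R 11, 12, 17 and 18, against 10.9, 11.9, 11.6 and 10.5 CPM in IGF1R_flfl 1, 2, 13 and 3. The groups did not overlap, yet the log2 fold change of 0.25 (SE 0.0862, 95% interval 0.06 to 0.44) did not pass the threshold (edgeR adjusted p = 0.115). Pcdhb17, the most abundant beta gene after Pcdhb1, averaged 25.0 ± 2.38 CPM in OMP_IGF1R and 25.5 ± 4.10 CPM in IGF1R_flfl (SD, n = 4 each). Its interval ran from -0.29 to 0.23 around a log2 fold change of -0.03 (edgeR adjusted p = 0.911). Pcdhb16 averaged 15.03 ± 1.65 CPM in OMP_IGF1R and 15.7 ± 1.10 CPM in IGF1R_flfl, with a log2 fold change of -0.06 (95% interval -0.28 to 0.16, edgeR adjusted p = 0.748).

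The other 16 beta genes lay at or below 12 CPM in every library. The nearest to the threshold were Pcdhb20 at -0.29 (edgeR adjusted p = 0.152), Pcdhb18 at -0.24 (edgeR adjusted p = 0.188) and Pcdhb11 at -0.35 (edgeR adjusted p = 0.195), named here after their values were seen. Pcdhb13 had a lower estimate, -0.50, but an interval of -1.01 to 0.02 (edgeR adjusted p = 0.227). Pcdhb18 had 7.40, 6.75, 8.67 and 7.83 CPM in OMP_IGF1R 11, 12, 17 and 18, against 9.20, 9.45, 8.86 and 8.76 CPM in IGF1R_flfl 1, 2, 13 and 3, without overlap but with less than 0.1 CPM between the nearest libraries. The widest interval was that of the least abundant gene, Pcdhb8, with a mean of 21.4 counts and a 95% interval of -0.91 to 0.37. A difference of the size seen in Pcdhb19 lies within it and was not detectable for Pcdhb8. Width did not follow abundance throughout. Pcdhb13, with a mean of 111 counts, had a wider interval than Pcdhb10, with a mean of 25.8 counts and an interval of -0.35 to 0.65.

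**Figure D2:**
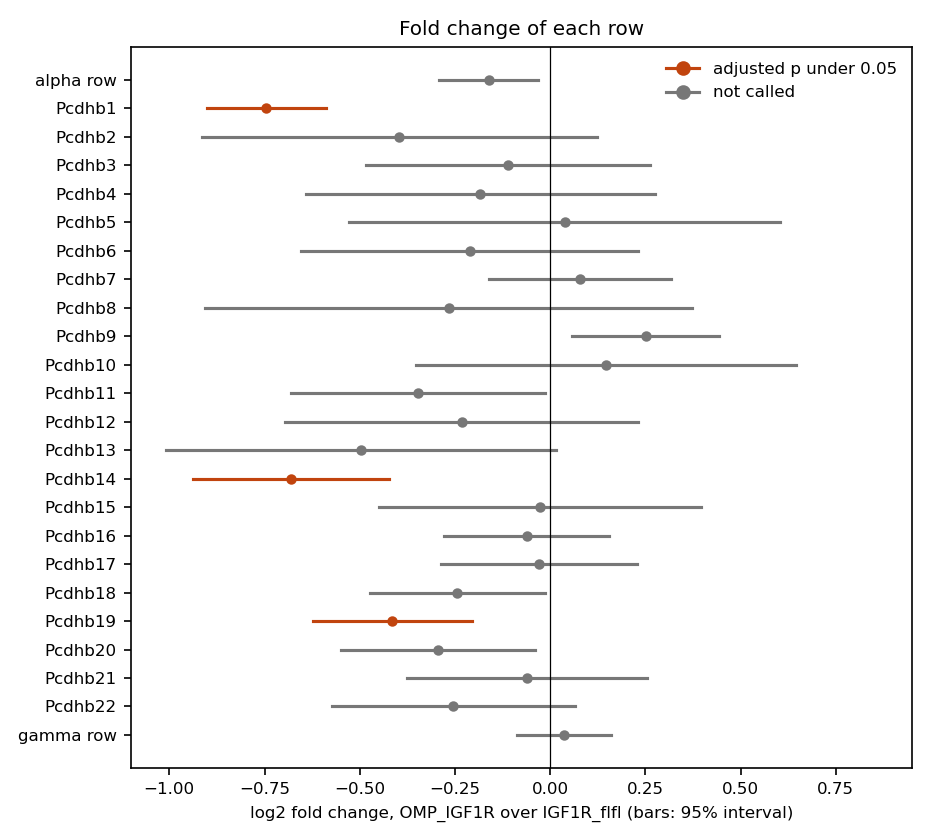
Log2 fold change of each row, OMP_IGF1R over IGF1R_flfl, with its 95% interval, in order along the chromosome, and in colour where the edgeR adjusted p was under 0.05. Pcdhb1 at -0.75, Pcdhb14 at -0.68 and Pcdhb19 at -0.41 are coloured, and the gamma row lies at 0.04.

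Levels of beta genes can be compared per kilobase of the row's genomic span, and are ordered here by the mean over all 8 libraries. Pcdhb1 stood at 49.8 ± 2.77 CPM per kb in OMP_IGF1R and 83.4 ± 6.41 CPM per kb in IGF1R_flfl (SD, n = 4 each), first of the 22 genes. Pcdhb17 came next with 7.64 ± 0.729 CPM per kb in OMP_IGF1R and 7.79 ± 1.25 CPM per kb in IGF1R_flfl. Pcdhb9 followed at 4.37 ± 0.298 CPM per kb in OMP_IGF1R and 3.67 ± 0.212 CPM per kb in IGF1R_flfl, and Pcdhb14 at 2.83 ± 0.422 CPM per kb in OMP_IGF1R and 4.54 ± 0.231 CPM per kb in IGF1R_flfl. Pcdhb9 thus stood above Pcdhb14 in OMP_IGF1R and below it in IGF1R_flfl. Within OMP_IGF1R, Pcdhb7 at 2.98 ± 0.250 CPM per kb and Pcdhb16 at 2.85 ± 0.314 CPM per kb also stood above Pcdhb14, by less than the SD. Across the 22 genes the mean over all libraries ran from 0.371 CPM per kb in Pcdhb8 to 66.6 CPM per kb in Pcdhb1, with a median of 1.14 CPM per kb.

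The make-up of the beta counts differed between the groups. Pcdhb1 alone held 49.0, 48.9, 48.3 and 48.5% of the counts over the 22 genes in OMP_IGF1R 11, 12, 17 and 18, against 58.5, 56.2, 59.4 and 60.4% in IGF1R_flfl 1, 2, 13 and 3. Its share was close to the same in all OMP_IGF1R libraries and lower there than in every IGF1R_flfl library, and the difference of the means was -9.95 percentage points. When Pcdhb1 was set aside, Pcdhb14 held 7.52 ± 0.749% of the remaining counts in OMP_IGF1R and 10.8 ± 0.478% in IGF1R_flfl, without overlap. Pcdhb9 held 10.3 ± 0.519% of them in OMP_IGF1R and 7.76 ± 0.408% in IGF1R_flfl, also without overlap. The shares of Pcdhb17 overlapped, at 19.4 ± 1.11% in OMP_IGF1R and 17.6 ± 2.69% in IGF1R_flfl (SD, n = 4 each throughout). A share falls when another gene of the sum rises, so these values describe the mixture and were given no test.

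**Figure D3:**
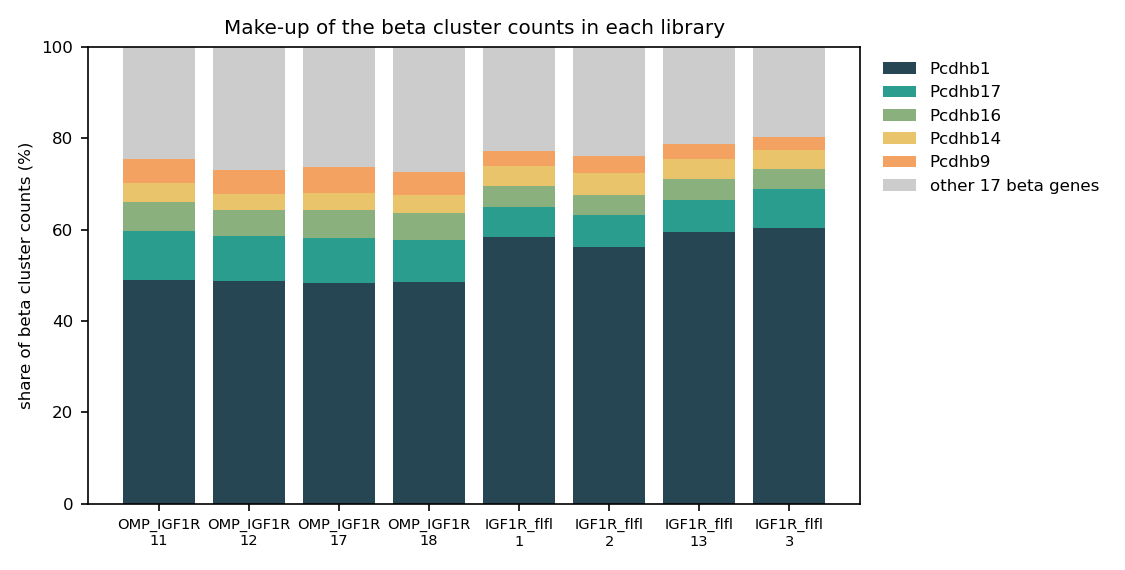
Share of the beta cluster counts, in percent, held by each of 5 beta genes and by the other 17 together, in each library, with OMP_IGF1R on the left. Pcdhb1 holds 48.3 to 49.0% in the OMP_IGF1R libraries and 56.2 to 60.4% in the IGF1R_flfl libraries.

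Summed over the 22 genes, the beta cluster had 267.1, 234.3, 250.3 and 253.5 CPM in OMP_IGF1R 11, 12, 17 and 18, against 338.5, 332.1, 359.8 and 366.8 CPM in IGF1R_flfl 1, 2, 13 and 3. The sums did not overlap and their means stood in a ratio of 0.719. Most of that gap was Pcdhb1. The other 21 beta genes summed to 129 ± 6.81 CPM in OMP_IGF1R and 144 ± 2.50 CPM in IGF1R_flfl (SD, n = 4 each), a ratio of 0.894, again without overlap. OMP_IGF1R 17 and IGF1R_flfl 2 stood apart in muscle markers and in bulb and oligodendrocyte markers. Without both of these libraries, the ratio for the 22 genes was 0.709. Pcdhb1 was then at -0.77 and Pcdhb14 at -0.63 on the log2 scale, and both calls were kept. Pcdhb19, at -0.35, lost its call there (edgeR adjusted p = 0.101).

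The alpha row, which stands for messengers ending in the alpha constant exons, was lower without passing the test. It had 129.7, 124.0, 133.9 and 137.0 CPM in OMP_IGF1R 11, 12, 17 and 18, against 142.7, 145.1, 140.4 and 158.5 CPM in IGF1R_flfl 1, 2, 13 and 3. The groups did not overlap, but OMP_IGF1R 18 and IGF1R_flfl 13 were within 4 CPM of each other. The log2 fold change was -0.16 (SE 0.0578, 95% interval -0.29 to -0.03, edgeR adjusted p = 0.128), and no alternative fit brought the adjusted p under 0.05.

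The gamma row, which stands for messengers ending in the gamma constant exons, was the most abundant member. It had 280.4, 251.2, 254.0 and 267.6 CPM in OMP_IGF1R 11, 12, 17 and 18, against 260.9, 261.3, 256.4 and 248.9 CPM in IGF1R_flfl 1, 2, 13 and 3. The groups overlapped, with a log2 fold change of 0.04 (SE 0.0552, 95% interval -0.09 to 0.16, edgeR adjusted p = 0.746). The interval leaves out a change as large as that of Pcdhb1, Pcdhb14 or Pcdhb19 for the row as a whole, but opposite changes of single gamma isoforms would cancel within it. Of all counts over the 24 rows, the gamma row took 40.8 ± 0.721% in OMP_IGF1R and 34.1 ± 1.48% in IGF1R_flfl, the beta genes 38.9 ± 0.505% in OMP_IGF1R and 46.4 ± 1.29% in IGF1R_flfl, and the alpha row 20.3 ± 0.826% in OMP_IGF1R and 19.5 ± 0.803% in IGF1R_flfl (SD, n = 4 each).

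**Figure D4:**
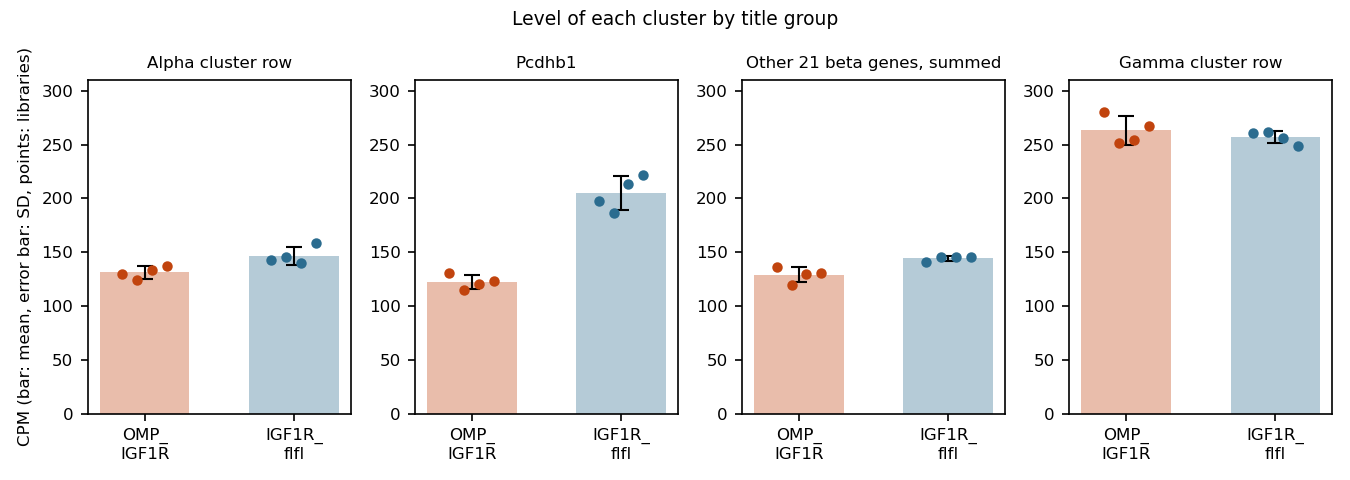
CPM of the alpha row, of Pcdhb1, of the other 21 beta genes summed and of the gamma row, with bars for the group mean, error bars for the SD and points for the 4 libraries of each group, OMP_IGF1R on the left. Pcdhb1 averages 122 CPM in OMP_IGF1R and 205 CPM in IGF1R_flfl, and the gamma row 263 CPM in OMP_IGF1R and 257 CPM in IGF1R_flfl.

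The 3 called genes were not neighbours along the locus. The members span 912 kb, with 77.3 kb between the alpha row and Pcdhb1, and 27.4 kb between Pcdhb1 and Pcdhb2. Pcdhb14 starts 182.7 kb and Pcdhb19 232.0 kb from the start of Pcdhb1, and genes that were not called lie between them. Of the 12 other genes tested from Zmat2 on one side to Pcdh12 on the other, 1 was called lower and 0 higher, with a median log2 fold change of -0.07. Over all genes tested, 5.37% were called lower. The called gene was the non-clustered protocadherin Pcdh1, whose call was lost in 8 of the 15 alternatives. Taf7, which encodes a subunit of the general transcription factor TFIID and lies between the beta and gamma clusters, was at -0.17 (edgeR adjusted p = 0.269). Hdac3, a histone deacetylase gene beyond the gamma cluster, was at 0.07 (edgeR adjusted p = 0.380). Gm10545, an RNA antisense to the alpha cluster, averaged 3.21 CPM in OMP_IGF1R and 3.04 CPM in IGF1R_flfl (edgeR adjusted p = 0.783).

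**Figure D5:**
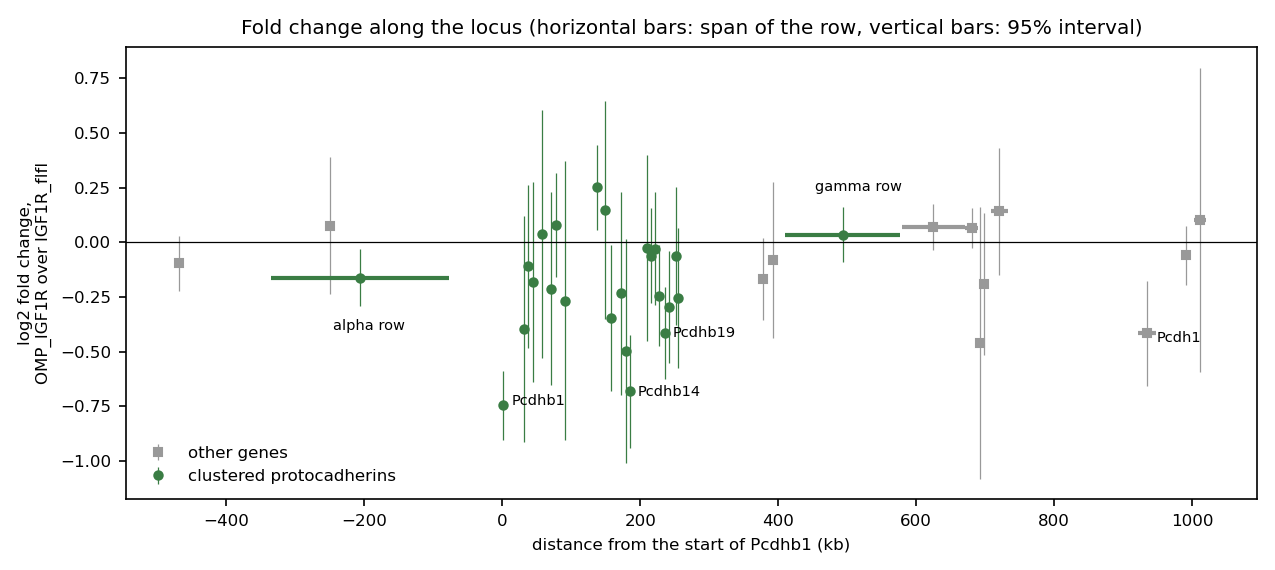
Log2 fold change, OMP_IGF1R over IGF1R_flfl, against the distance in kb from the start of Pcdhb1, for clustered protocadherin rows and for other tested genes of the region. Horizontal bars give each row's span and vertical bars its 95% interval. The called genes Pcdhb1, Pcdhb14 and Pcdhb19 lie apart from one another, with uncalled genes between them, the alpha row lies at -0.16 and the gamma row at 0.04.

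Similar sequences of neighbouring genes can split reads, so shared stretches were counted in the GENCODE M21 transcripts. Some of these transcripts reach beyond the counted row. Pcdhb14 had 8596 windows of 100 bases for a row of 3.44 kb. Shares below are therefore of the reference transcripts, and shorter or inexact matches were not counted. Of the 22 beta genes, 9 had no stretch of 100 bases in common with another gene, among them Pcdhb1, Pcdhb14 and Pcdhb16. Pcdhb19 shared 0.242% of its 100-base windows, with Pcdhb17 and Pcdhb20. Pcdhb12 shared 62.3% of its windows, with the annotated gene Gm37446 and with Pcdhb11. Pcdhb11 shared 22 windows in all, against 1828 in Pcdhb12, so most of that overlap was with Gm37446. No row of the symbol Gm37446 lies between Zmat2 and Pcdh12 among the counted genes. Whether the overlap affected the counts of Pcdhb12 was not tested. Pcdhb21 and Pcdhb22 shared 7.73% and 5.39% of theirs with each other.

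Markers of neuronal stage moved with the group. Of 18 markers of mature olfactory neurons, 16 were called lower in OMP_IGF1R and 0 higher. Among all genes tested, 5.37% were called lower and 2.83% higher. The summed level of the mature neuron markers was 10160 to 12170 CPM in OMP_IGF1R and 17390 to 24300 CPM in IGF1R_flfl. The ratio of the mean sums was 0.556, or 0.626 without Omp. For the clustered protocadherins the ratio of means was 0.597 for Pcdhb1, 0.894 for the other 21 beta genes summed, 0.894 for the alpha row and 1.03 for the gamma row. Of 15 markers of immature neurons, 10 were called higher and 0 lower, with sums of 2146 to 2381 CPM in OMP_IGF1R and 1517 to 1705 CPM in IGF1R_flfl. All 12 markers of precursor and dividing cells were called higher, with sums of 244 to 313 CPM in OMP_IGF1R and 143 to 165 CPM in IGF1R_flfl. Of 10 markers of supporting (sustentacular) cells 0 were called by edgeR, with sums of 18720 to 19620 CPM in OMP_IGF1R and 16580 to 21650 CPM in IGF1R_flfl. In bulk tissue, fewer cells of a type and less RNA per cell cannot be told apart, and the part of these markers in the protocadherin values was not tested.

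Of 32 genes for chromatin and looping factors, listed as possible regulators of clustered protocadherins, 4 rose, 0 fell and 28 were not called. A role of each of them at these promoters was not tested. Their median log2 fold change was 0.07, and 2.83% of all genes tested were called higher. Uhrf1, which helps to copy DNA methylation when cells divide, averaged 11.7 ± 0.682 CPM in OMP_IGF1R and 7.07 ± 1.06 CPM in IGF1R_flfl (log2 fold change 0.73, edgeR adjusted p = 0.00955). Hdac2, a histone deacetylase, averaged 139 ± 7.35 CPM in OMP_IGF1R and 111 ± 3.10 CPM in IGF1R_flfl (0.33, edgeR adjusted p = 0.00941). Smchd1, a chromatin protein that keeps clustered protocadherins silenced in mouse, averaged 90.8 ± 4.11 CPM in OMP_IGF1R and 75.4 ± 4.07 CPM in IGF1R_flfl (0.27, edgeR adjusted p = 0.0209). Tet3, an enzyme that oxidises methylated cytosine, averaged 130.4 ± 8.93 CPM in OMP_IGF1R and 103 ± 10.1 CPM in IGF1R_flfl (0.34, edgeR adjusted p = 0.0320). The calls of Smchd1 and Tet3 were lost without some single libraries, including OMP_IGF1R 11, 12 or 18, while those of Uhrf1 and Hdac2 were kept in all 15 alternatives. These genes rose beside the precursor and dividing-cell markers, and the part of those cells was not tested. Ctcf, whose protein anchors the loops, averaged 106 ± 2.85 CPM in OMP_IGF1R and 108 ± 2.45 CPM in IGF1R_flfl (-0.03, edgeR adjusted p = 0.753). The cohesin subunit gene Rad21 averaged 227 ± 9.97 CPM in OMP_IGF1R and 240.1 ± 5.30 CPM in IGF1R_flfl (-0.08, edgeR adjusted p = 0.407), and both were named after their values were seen.

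Of 26 genes for partners and effectors of protocadherin proteins, 1 rose, 0 fell and 25 were not called. Their median log2 fold change was 0.03, and 2.83% of all genes tested were called higher. Marcks, an actin-binding membrane protein that acts downstream of gamma protocadherins in mouse neurons, averaged 171 ± 8.20 CPM in OMP_IGF1R and 127 ± 8.57 CPM in IGF1R_flfl (log2 fold change 0.43, edgeR adjusted p = 0.00694), a call kept in all 15 alternatives. Cyfip2, a subunit of the WAVE actin regulator to which protocadherin tails bind, had means of 257 ± 15.6 CPM in OMP_IGF1R and 289 ± 9.70 CPM in IGF1R_flfl (-0.17, edgeR adjusted p = 0.127). The kinase gene Fyn had 30.2 ± 2.02 CPM in OMP_IGF1R and 25.1 ± 3.65 CPM in IGF1R_flfl (0.27, edgeR adjusted p = 0.145). It was called higher in 3 of the 15 alternatives, among them the fit without IGF1R_flfl 2, where it was at 0.38 (edgeR adjusted p = 0.0188). Nefm, a neurofilament gene, was at -4.88 on the log2 scale (edgeR adjusted p = 0.109) through IGF1R_flfl 2 alone. That library had 113.0 CPM of Nefm against 1.09 to 1.35 CPM in the other IGF1R_flfl libraries. It is also the library with the high sum over bulb and oligodendrocyte markers, and the source of its Nefm was not tested.

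Of 13 protocadherin-family genes outside the clusters, 0 rose, 1 fell and 12 were not called. Their median log2 fold change was 0.05, and 5.37% of all genes tested were called lower. Pcdh1 had 93.4, 82.5, 87.2 and 82.0 CPM in OMP_IGF1R 11, 12, 17 and 18, against 129.5, 95.4, 103.2 and 132.4 CPM in IGF1R_flfl 1, 2, 13 and 3. The groups were 2 CPM apart at their nearest, and the difference of -0.42 on the log2 scale (SE 0.108, edgeR adjusted p = 0.0451) was close to the threshold. The call was lost under 8 of the 15 alternatives, with edgeR adjusted p of up to 0.129. Pcdh9 was at -0.35 (edgeR adjusted p = 0.0872), Cdhr1, a cadherin-related gene, at -0.33 (edgeR adjusted p = 0.103) and Pcdh20 at 0.70 (edgeR adjusted p = 0.160). Cdhr1 was called lower in 2 of the 15 alternatives, without IGF1R_flfl 2 (edgeR adjusted p = 0.0487) and with DESeq2 (adjusted p = 0.0418).

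In the authors' deposited table of their own comparison, whose direction its header does not state, all 24 rows had a log2 fold change of the same sign as in the fit above. The adjusted p in the authors' deposited table was under 0.05 for the same 3 genes, with log2 fold changes of -0.71 for Pcdhb1 (adjusted p = 3.99e-21), -0.60 for Pcdhb14 (adjusted p = 4.88e-06) and -0.37 for Pcdhb19 (adjusted p = 0.00626). The alpha row was at -0.15 (adjusted p = 0.0767) and the gamma row at 0.04 in the authors' deposited table. Both results come from the same libraries, so the table is not independent of the fit.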

How the data were processed

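RNA was sequenced from dissected olfactory epithelium as stranded, poly(A)-selected, paired-end libraries, per the labels' protocols; the design text speaks of olfactory sensory neurons. Per the submitters' processing notes, the tools were TopHat2 2.0.14, Trim Galore 0.3.7, DESeq2 and SAMtools 1.2, and the build was mm10 (GRCm38). How reads were counted, on which strand and with which annotation is not given in the sources used here, so overlapping and antisense genes may share reads. The deposited count table holds raw whole-number counts per gene, as its values show, and 8 further columns, of standard deviations, were not used. The authors' deposited comparison holds a mean normalized signal, log2 fold changes, a test score, and p-values, per the file headers.

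Groups were taken from the titles. Counts were tested with edgeR 4.0.16 in R 4.3.3 (TMM, filterByExpr, quasi-likelihood F-test, Benjamini-Hochberg over 17381 genes, threshold 0.05). CPM use TMM effective library sizes. Gene models came from GENCODE M21, in which 24990 of 25913 identifiers were found. Intervals are at 95%. Alternatives were other scalings and filters, DESeq2 1.42.0, limma 3.58.1 voom, and leaving out libraries. Tests were also run on simulated counts with known changes and no library set apart. In that these counts differ from the data, and no result here rests on that run. Depth limits the genes of few counts.

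Members, lists and alternatives were chosen with earlier results of these data known. Named genes were, per cluster, those past the threshold, the 4 of highest mean CPM and the 4 of smallest p, and from each list those past the threshold and up to 4 of smallest p. No sequences of this locus are printed.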

Additional observations from a re-analysis of the deposited data

Results flagged for a closer look

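Of 124 groups of 4 libraries examined, 10 held a library apart from the other 3, by a gap over the whole range above Dixon's 95% limit. Chance gives about 1 in 20 such groups. Among the members, Pcdhb6 stood at 1.68 CPM in OMP_IGF1R 11, against 1.23 to 1.28 CPM in the other OMP_IGF1R libraries. Pcdhb7 stood at 11.8 CPM in OMP_IGF1R 18, against 9.87 to 10.2 CPM in the others. The sum of the beta genes without Pcdhb1 was 140.7 CPM in IGF1R_flfl 1, against 145.3 to 146.0 CPM in the other IGF1R_flfl libraries.

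Outside the clusters, Kirrel3 stood at 45.0 CPM in OMP_IGF1R 11, against 34.6 to 35.7 CPM in the other OMP_IGF1R libraries. The summed partners and effectors were at 3035 CPM in OMP_IGF1R 11, against 3154 to 3161 CPM in the others. The summed precursor and dividing-cell markers were at 243.6 CPM in OMP_IGF1R 17, against 305 to 313 CPM in the others. The summed skeletal muscle markers were at 552.4 CPM in OMP_IGF1R 17, against 4.90 to 7.55 CPM in the others, and at 15.3 CPM in IGF1R_flfl 2, against 3.86 to 4.06 CPM in the other IGF1R_flfl libraries. Most of the sum in IGF1R_flfl 2 was Pvalb, at 11.4 CPM against 0 to 0.159 CPM in the other IGF1R_flfl libraries. The muscle markers Acta1, Ckm, Mylpf and Atp2a1 lay within the range of those libraries there. The summed bulb and oligodendrocyte markers were at 2809 CPM in IGF1R_flfl 2, against 609 to 767 CPM in the others, and Nefm was at 113.0 CPM there, against 1.09 to 1.35 CPM.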

How the results depend on the processing

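Across the 15 alternatives, 2 or 3 beta genes were called lower, 0 alpha or gamma rows were called, and 0 members were called higher; Pcdhb1 and Pcdhb14 were called lower in every one, and Pcdhb19 lost its call in 8, with an edgeR adjusted p of up to 0.101. Among all genes tested, 1425 were called, 2140 with DESeq2, and 569 to 1477 when 1 library was left out. The gamma row's ratio of 1.03 became 1.08 with raw library totals, while the beta ratio stayed between 0.704 and 0.756. Signs of near-zero log2 fold changes turned in 4 uncalled genes. Pcdhb15 (-0.03) was at 0.0057 and Pcdhb17 (-0.03) at 0.0031 with upper-quartile scaling. With 1 library left out, Pcdhb5 ranged from -0.16 to 0.16, Pcdhb15 from -0.11 to 0.0845, Pcdhb17 from -0.10 to 0.0914 and Pcdhb21 from -0.14 to 0.0105. The cause was not tested. Pcdhb8, at under 1 CPM on average, did not reach the filter of 1 CPM in 4 libraries. No paired analysis was possible because the groups share no replicate numbers.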

Other observations

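Of 23 other genes with roles in the identity, guidance or adhesion of olfactory axons, 2 rose, 2 fell and 19 were not called. Their median log2 fold change was -0.15, and 2.83% of all genes tested were called higher and 5.37% lower. Plxna3, a semaphorin receptor, averaged 162 ± 8.73 CPM in OMP_IGF1R and 249 ± 42.0 CPM in IGF1R_flfl (SD, n = 4 each throughout), or -0.63 on the log2 scale (edgeR adjusted p = 0.0117), and was called in all 15 alternatives. Kirrel3, an adhesion molecule whose level differs between glomeruli, averaged 37.5 ± 5.02 CPM in OMP_IGF1R and 50.6 ± 5.19 CPM in IGF1R_flfl (-0.43, edgeR adjusted p = 0.0318). The secreted repellent gene Sema3a averaged 23.2 ± 2.46 CPM in OMP_IGF1R and 17.6 ± 1.90 CPM in IGF1R_flfl (0.39, edgeR adjusted p = 0.0439). Its receptor gene Nrp1 averaged 71.8 ± 3.003 CPM in OMP_IGF1R and 61.8 ± 3.71 CPM in IGF1R_flfl (0.22, edgeR adjusted p = 0.0440). The calls of Kirrel3, Sema3a and Nrp1 were lost in 6, 8 and 9 of the 15 alternatives, with edgeR adjusted p of up to 0.101, 0.127 and 0.123.

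Of 10 horizontal basal cell markers, 4 were called higher and 0 lower, against 2.83% of all genes called higher. Their sums did not overlap, at 476.5 to 689.9 CPM in OMP_IGF1R and 362 to 434 CPM in IGF1R_flfl. Among olfactory bulb and oligodendrocyte markers 1 of 13 tested was called lower, among ensheathing glia markers 1 of 10 and among respiratory markers 1 of 9. The share called lower among all genes tested was 5.37%. Of 4 muscle, 10 blood and endothelial and 10 macrophage markers tested, 0 were called by edgeR.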
